A study of Mus musculus with 8 samples.

Results

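The 10 genes described here encode the signals, receptors and extracellular antagonists of the bone morphogenetic protein (BMP) pathway: the ligand genes Bmp2, Bmp4, Bmp7 and Bmp8b, the antagonist genes Grem1, Nog and Chrd, and the receptor genes Bmpr1a, Bmpr2 and Acvr1. They were taken by name from the 21900 protein-coding genes of the GRCm38 RefSeq annotation, and all 10 were matched. For each, the ZGLP1 peak summits inside the gene and within 10 kb and 50 kb of its start or end were counted. Of the 32927 summits in the list, 59 lay inside or within 50 kb of a member, and none of them was counted for more than 1 member.

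The study mapped ZGLP1, a nuclear protein with GATA-like zinc fingers, on the mouse genome by chromatin immunoprecipitation and sequencing (ChIP-seq) of a V5-tagged, overexpressed Zglp1. The 5 ChIP libraries came from primordial germ cell-like cells (PGCLCs, germ cell precursors made in culture from embryonic stem cells) at culture day 7 (c7) after doxycycline (Dox) and retinoic acid (RA), at c8 after Dox and RA, at c7 after Dox only and at c8 after Dox only, and from embryonic stem cells (ESCs) after 24 h of Dox and RA. The 3 input libraries came from c8 PGCLCs after Dox and RA, c8 PGCLCs after Dox only, and ESCs after Dox and RA. All cells were of the strain C57BL/6 x DBA2. They carried V5Zglp1 and received Dox, which in PGCLCs was given from culture day 3, and were sorted for mCherry, the PGCLCs also by the SC reporter. The sample characteristics give the sorted PGCLCs as SC+, while the treatment text reads SC-, so which of these was profiled is not certain from the labels. The labels name the ESC lines H18 BVSC and BDF1-2-1 BVSC for the series without saying which library came from which. PGCLCs had been induced with medium that contained BMP4 protein. Each group had 1 library.

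The summits came as a single list with no library, height, score or p-value, so a summit could not be tied to PGCLCs or ESCs, to Dox only or to Dox and RA, and no comparison of those groups was made. The depth behind the list is not known, and where no summit is listed the protein may be absent or its signal too low for the authors' threshold. The values below are positions and counts of summits, and no test over samples was possible.

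BMP ligands are secreted dimers of the TGF-beta family. They bind a complex of type I receptors (among them the products of Bmpr1a and Acvr1) and type II receptors (among them that of Bmpr2), which phosphorylates SMAD1, SMAD5 and SMAD9, and these enter the nucleus with SMAD4 and raise genes such as the Id genes. Gremlin 1, noggin and chordin bind ligands outside the cell and keep them from the receptors. In the mouse embryo, BMP4 and BMP8b from the extraembryonic ectoderm are needed for the formation of primordial germ cells, and BMP signalling acts with retinoic acid when female germ cells enter meiosis.

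Sequence was at hand for windows of 300 bases around annotated start sites, from 250 bases before to 50 bases after the start (RefSeq, GRCm38.p6). Of the 31 summits inside a member or within 10 kb of its ends, 3 fell in such a window, and these windows are printed because they are the places where the bases under a summit of a member can be read. The first is the promoter of Grem1 itself (chr2:113758599-113758898, minus strand), with the summit 21 bases after the start site. The others are named by noncoding RNA genes. The window of Gm40010 lies wholly inside Bmp7, near its upper end (chr2:172939596-172939895, minus strand). Whether its bases belong to an exon of Bmp7 was not examined, so they are not to be read as the promoter of Bmp7. Its summit lies inside Bmp7 and 194 bases before the start of Gm40010, so not within Gm40010 itself. The window of Gm15222 is inside Bmp4 (chr14:46387228-46387527, plus strand), with the summit 24 bases after the start of Gm15222. Each is written 5′ to 3′ on the strand of the gene that names it, and the capitals mark the 21 bases centred on the summit.
Grem1: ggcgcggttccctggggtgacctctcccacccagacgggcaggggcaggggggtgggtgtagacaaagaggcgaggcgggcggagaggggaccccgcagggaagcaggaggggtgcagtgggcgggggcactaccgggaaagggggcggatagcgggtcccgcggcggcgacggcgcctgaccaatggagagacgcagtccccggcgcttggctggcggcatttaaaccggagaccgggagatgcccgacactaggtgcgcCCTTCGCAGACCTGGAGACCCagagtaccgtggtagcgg
Gm40010 (Bmp7 locus): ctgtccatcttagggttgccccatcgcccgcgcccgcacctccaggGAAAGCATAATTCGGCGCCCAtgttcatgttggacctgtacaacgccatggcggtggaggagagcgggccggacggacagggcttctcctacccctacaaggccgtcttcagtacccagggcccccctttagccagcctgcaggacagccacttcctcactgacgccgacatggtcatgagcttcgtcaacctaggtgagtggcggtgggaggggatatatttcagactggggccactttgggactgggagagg
Gm15222 (Bmp4 locus): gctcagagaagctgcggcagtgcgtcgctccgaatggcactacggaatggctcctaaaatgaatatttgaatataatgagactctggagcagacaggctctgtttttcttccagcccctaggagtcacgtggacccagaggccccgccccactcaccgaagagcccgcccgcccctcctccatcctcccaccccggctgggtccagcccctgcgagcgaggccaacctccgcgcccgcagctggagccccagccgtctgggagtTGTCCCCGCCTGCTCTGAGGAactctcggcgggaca
All 3 windows were rich in G and C, with 70.7% at Grem1, 61.3% at Gm40010 and 63.7% at Gm15222. The motif GATAA, which is only a single form of a GATA factor site, was searched on both strands and occurred in none of them. The shorter letters GATA were not counted, but can be read in the Grem1 window (as ggatag) and the Gm40010 window (as ggatat). The motif GGCGCC, which reads the same on both strands and has been described as a GC-rich SMAD site, occurred once in the Grem1 window, 99 bases before the summit, and once in the Gm40010 window, where its first base lay 3 bases after the summit. CAGAC, a SMAD-type motif searched on both strands, had 5 matches in the 3 windows. In the Grem1 window they started 240 and 4 bases before the summit, in the Gm15222 window 185 and 20 bases before it, the nearer as the reverse complement GTCTG, and in the Gm40010 window 213 bases after it. A match is a description of letters, and no match says only that these letters are not in the window.

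The whole set stood as follows. A summit lay inside 9 of the 10 members, against 54.5% of all protein-coding genes. A summit lay within 10 kb of an end of 9 of 10, against 66.6% of all protein-coding genes, and within 50 kb of 9 of 10, against 78.0%. The exception at every distance was Bmp2. Within 1 kb of an end the count was 7 of 10, against 52.9%. The median number of summits within 10 kb was 2 for the members and 1 for all protein-coding genes, and within 50 kb it was 5.5 for the members and 3 for all. The median distance to the closest summit was 388 bases for the members and 657.5 bases for all protein-coding genes. The median length of the members, 16373.5 bases, was near that of all protein-coding genes, 17146 bases, but the spread of lengths was not matched. Bmp7, Bmpr1a, Bmpr2 and Acvr1 were in the longest of 5 length classes (57128 bases or more). In that class 77.5% of genes had a summit inside and 76.7% had one within 10 kb. With 10 genes and no sampling unit these shares are a description, and no test of the difference was made.

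**Figure D1:**
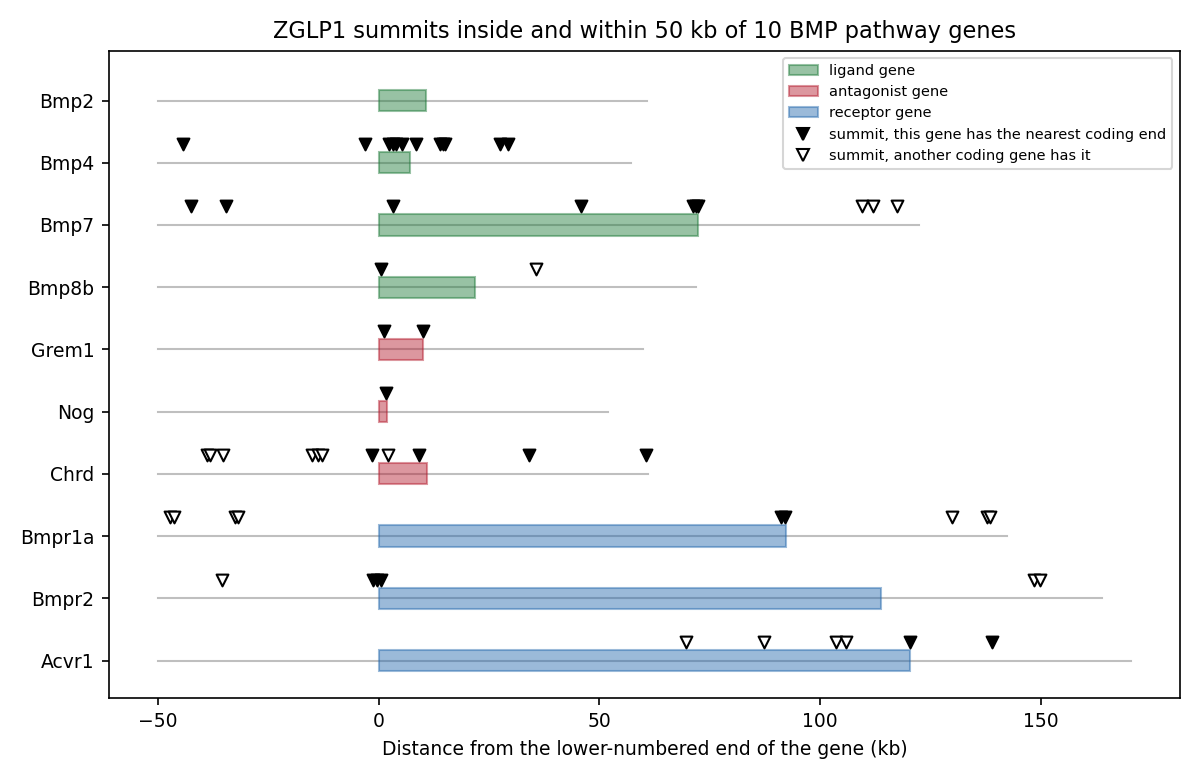
Map of the 10 genes, ligands above antagonists above receptors, with the distance in kb from the lower-numbered end of each gene on the horizontal axis. Boxes are genes, grey lines reach 50 kb past each end, and triangles are summits, filled where the member has the nearest protein-coding gene end and open where another gene has it. Bmp2 has no triangle, and the 12 of Bmp4 are all filled.

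Among the ligand genes, Bmp4 and Bmp2, which encode closely related proteins, stood at opposite ends. Bmp4 (chr14:46383525-46390669, 7145 bases) had 9 summits within 10 kb of its ends, a number reached by 0.566% of all protein-coding genes, and by 0.845% of genes of a like length (4158 to 11628 bases). It had 12 within 50 kb, a number reached by 7.87% of all protein-coding genes. The closest neighbouring protein-coding gene, Cdkn3, lay 369792 bases away, so Bmp4 had the nearest gene end for all 12. Over the gene and 50 kb on each side this came to 11.2 summits per 100 kb, against 0.845 per 100 kb over chromosome 14. By the same measure Grem1 (1.82 against 1.45) and Bmp8b (1.64 against 1.49) were near the rate of their chromosomes, Nog (0.981 against 2.38) and Bmp2 (0 against 1.45) below it, and the other 5 members, at 2.72 to 9.91, above it. A chromosome rate also covers stretches without genes, so it is not a background for windows around genes. Against genes, the counts within 50 kb of these 5 were reached by 10.1% (Chrd) to 38.1% (Acvr1) of all protein-coding genes. Those of Grem1 and Bmp8b were reached by 67.0%.

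The summits of Bmp4 were spread over the gene and its surroundings and did not sit at its start site, which is at the upper end since the gene runs on the minus strand. The 4 inside the gene lay 1785, 3167, 3776 and 4771 bases after the start. Upstream of the start, 1 summit lay at 1257 bases, 3 formed a run at 6780, 7361 and 7965 bases, and 2 more lay at 20267 and 22245 bases. Beyond the other end, summits lay 2969 bases past the gene, within the noncoding RNA gene Gm15217, and 44337 bases past it. Bmp4 was thus the only one of the 7 members with an annotated start site that had no summit within 1 kb of it. Joining summits under 1 kb apart left 5 within 10 kb of Bmp4. The shares of genes given above are for summits as listed, and were not counted again with summits joined.

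Bmp2 (chr2:133552159-133562896, 10738 bases) had 0 summits inside, within 10 kb or within 50 kb, as did 22.0% of protein-coding genes at 50 kb. Its closest summit lay 606562 bases below the gene, at 439 bases from an end of Fermt1, and the closest above it 1081331 bases away, at 106 bases from an end of Tmx4. Only 4.94% of protein-coding genes had their closest summit as far away or farther. The stretch between these flanking summits measured 1698630 bases and held 3 whole protein-coding genes, Bmp2 among them. Of the 32905 gaps between neighbouring summits in the list, 165 (0.501%) were at least as wide, and the median gap was 16429 bases. The share of gaps counts each gap once, although a wide gap is likelier to hold a given gene. It is therefore not a background for Bmp2, for which the share of genes, 4.94%, is nearer. Few genes lie around Bmp2: the nearest other protein-coding gene, Fermt1, was 606123 bases away, which is more than the 369792 bases at Bmp4.

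Bmp7, whose product also forms dimers with BMP2 and BMP4, spans 72310 bases (chr2:172868012-172940321). It had 4 summits within 10 kb of its ends, a number reached by 14.3% of protein-coding genes, and 10 within 50 kb. Of the 4, 3 were gathered at the upper end, at 1176 and 482 bases inside the gene and 117 bases beyond it, and the other lay 3192 bases inside the lower end. A further summit was within the gene, 26377 bases from the nearer end, and 2 lay 34615 and 42532 bases below it. The remaining 3 of the 10 lay 37152, 39616 and 45054 bases above Bmp7 but inside Spo11, which encodes the protein that makes the DNA double-strand breaks of meiosis. The first of these was 94 bases from an end of Spo11, so 7 of the 10 had Bmp7 as the nearest gene. Joined over gaps under 1 kb, the 4 summits within 10 kb became 2.

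Bmp8b (chr4:123104308-123126094), the ligand gene that acts with Bmp4 in the specification of primordial germ cells, had 1 summit within 10 kb, which 66.6% of protein-coding genes also had or exceeded. It lay 524 bases inside the lower end of the annotated span and 329 bases before the start site at 123105161. The only other summit within 50 kb lay 13868 bases beyond the upper end, 28 bases from an end of Ppie. Of the ligand genes, then, Bmp4 and Bmp7 had several summits, Bmp8b a single summit near its start, and Bmp2 none.

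**Figure D2:**
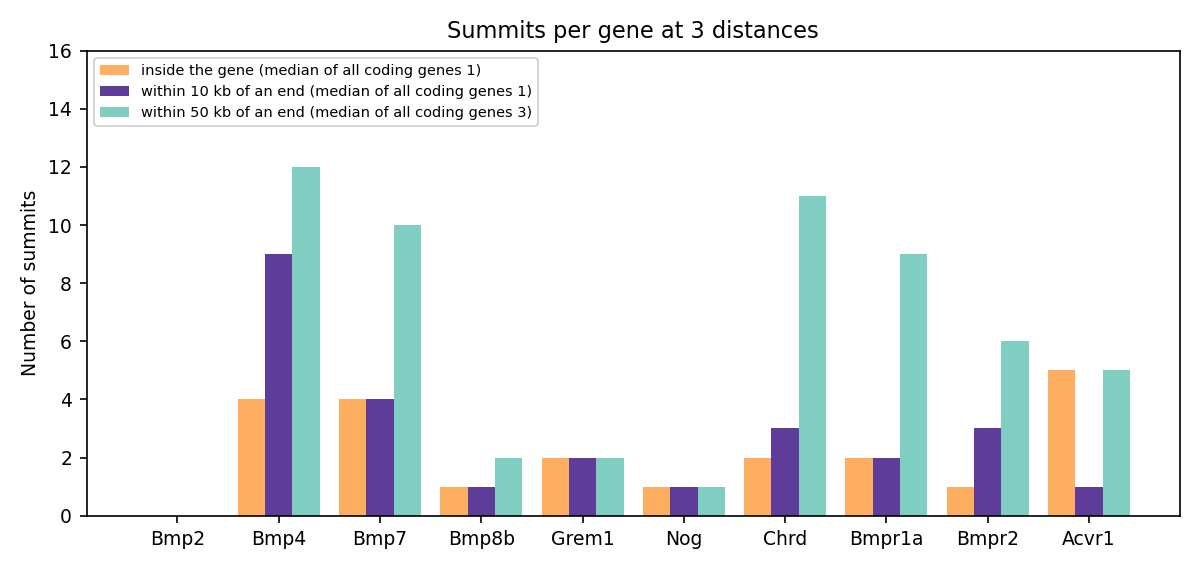
Number of summits per gene (vertical axis) inside the gene, within 10 kb and within 50 kb of its ends, for the 10 members. Bars are counts from 1 list, without error bars, and the legend gives the median of all protein-coding genes, which is 1, 1 and 3. Bmp4 has the tallest bars at 10 kb (9) and 50 kb (12), and Bmp2 has none.

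The antagonist genes had 1 to 3 summits within 10 kb, with a median of 2, as had all members together. Grem1 (chr2:113748675-113758648), encoding gremlin 1, had 2, both inside the gene: 1 at 21 bases from the start, in the window printed above, and 1 at 8668 bases from the start and 1305 bases from the other end. No further summit lay within 50 kb. Nog (chr11:89300638-89302559), encoding noggin, is the shortest member with 1922 bases. It had a single summit in all, 317 bases inside its upper end. In genes up to 4157 bases, 37.2% had a summit within 10 kb and 22.3% had 1 inside.

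Chrd (chr16:20731425-20742384), encoding chordin, had 11 summits within 50 kb but 3 within 10 kb. The 3 lay 3152 bases before the start site, 527 bases after it, and 7418 bases after it. The one at 527 bases was also inside Thpo, the thrombopoietin gene that overlaps Chrd, and an end of Thpo was nearer (857 bases) than either end of the annotated span of Chrd (2229 bases). The summit at 3152 bases before the start was likewise inside Thpo. The locus is gene-dense on its lower side, where 6 summits lay in Eif4g1, Fam131a, Clcn2 and Polr2h, among them 1 at 11 bases from an end of Clcn2. Counting only summits with Chrd as the nearest gene left 4 of the 11.

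All 3 receptor genes are long and had their closest summit near the start site. Acvr1 (chr2:58446438-58566828, 120391 bases), encoding the type I receptor ALK2, had a summit 154 bases after its start, which lies inside Upp2 too, since the 2 genes overlap there. Another 4 lay deeper in the gene, at 14607, 16786, 33096 and 50669 bases after the start. Within 10 kb of its ends Acvr1 had 1 summit, a number reached by 66.6% of all protein-coding genes and by 76.7% of genes of 57128 bases or more. With 5 inside, it had the highest count inside a gene among the members, a number reached by 2.82% of all protein-coding genes and by 10.5% of those long genes. A sixth summit lay 18472 bases upstream, inside Upp2. By distance to gene ends, Upp2 rather than Acvr1 was the nearest gene for the 4 deeper summits, although they lie outside it, because the 2 genes overlap by 512 bases.

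Bmpr1a (chr14:34411061-34503336, 92276 bases), encoding the type I receptor ALK3, had 2 summits inside and within 10 kb. They straddled the start site, 568 bases before and 473 bases after it. In the 91012 bases between the lower end of the gene and the first of these, none was listed. The other 7 within 50 kb lay 31883 bases or more from its ends, and all had another gene as the nearest, among them Mmrn2 on the lower side and Ldb3 on the upper side. Bmpr2 (chr1:59764279-59878081, 113803 bases), encoding the type II receptor, had 3 within 10 kb in a like arrangement, 1208 and 459 bases before the start and 513 bases after it. Only the last is inside the gene, and the other 3 within 50 kb were nearer to Fam117b or Nop58. The run at the Bmpr2 start became 1 when summits under 1 kb apart were joined.

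**Figure D3:**
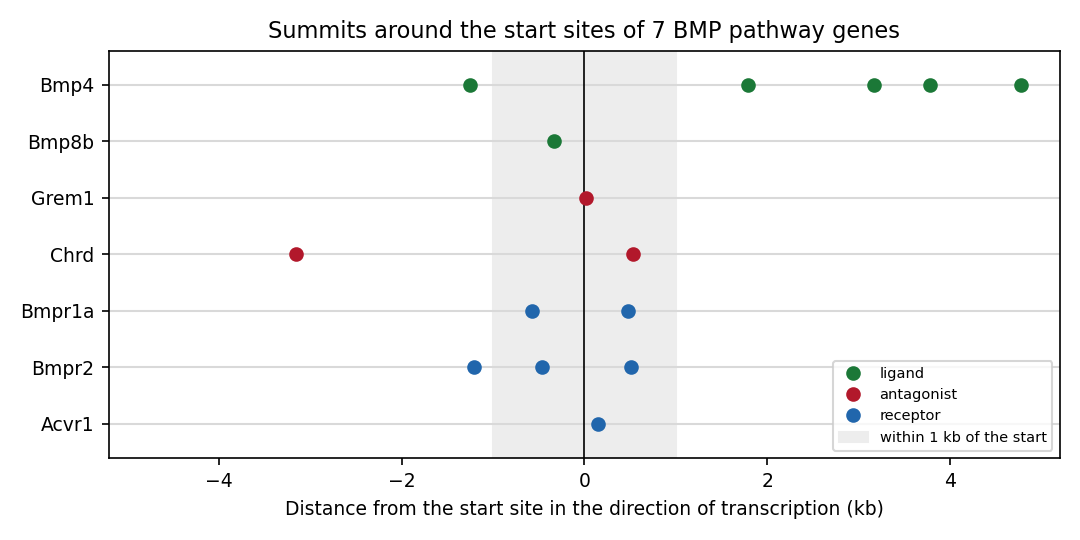
Summits within 5 kb of the annotated start site of the 7 members that have one in the promoter table, by distance in kb in the direction of transcription (horizontal axis). Each point is a summit, and the grey band covers 1 kb on each side of the start. Bmp4 is the row without a point in the band, with its nearest at 1257 bases before the start.

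The 7 members with an annotated start site were Bmp4, Bmp8b, Grem1, Chrd, Bmpr1a, Bmpr2 and Acvr1. A summit lay within 1 kb of the start in 6 of them, against 53.9% of the 21263 start sites of protein-coding genes. Of the 8 summits in that range, 3 lay upstream of the start and 5 downstream. In the narrower window from 250 bases before to 50 bases after the start, 1 of 7 had a summit, that of Grem1, against 25.2% of windows. At Acvr1, Bmpr1a, Bmpr2, Chrd and Bmp8b the summits lay 154 to 568 bases to the side of the start and so outside the printed length.

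The promoter windows of these 7 members were all above the median of all windows in G and C. They ranged from 59.3% G and C at Bmpr2 to 83.7% at Acvr1, with 64.0% at Bmp4, 65.3% at Bmp8b, 70.7% at Grem1, 78.3% at Chrd and 79.3% at Bmpr1a. Their median was 70.7%, against 56.3% over all 21263 windows. Windows with a summit anywhere in the list had a median of 63.0%, against 53.3% for those without. The Acvr1 window was richer than 99.7% of all windows, and the Bmpr2 window than 58.9%, below the median of windows with a summit. CG dinucleotides numbered 12 at Bmp4 and 51 at Acvr1, with a median of 28 over the 7 and 13 over all windows. GATAA occurred in 0 of the 7, against 22.5% of all windows, 11.8% of windows with a summit and 26.1% of those without. The longer AGATAA, which contains it, was likewise in 0 of 7, against 9.65% of all windows. GGCGCC was in 4 of the 7 (Grem1, Chrd, Bmpr1a and Bmpr2), against 15.3% of all windows, 24.6% of those with a summit and 12.2% of those without. CAGAC was in 3 of 7 (Bmp8b, Grem1 and Chrd), against 48.4% of all windows, and TATAAA, searched on both strands too, in 0 of 7, against 12.6%. The member windows were also richer in G and C than most, and the part of base composition in these counts was not tested.

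The order of the members by closest summit was Grem1 (21 bases), Bmp7 (117 bases), Acvr1 (154 bases), Bmpr1a (222 bases), Nog (317 bases), Bmpr2 (459 bases), Bmp8b (524 bases), Bmp4 (1257 bases), Chrd (1450 bases) and Bmp2 (606562 bases). This order did not follow the order by number of summits: Bmp4, with most summits, was eighth by distance to an end, and Grem1, the closest, had 2.

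**Figure D4:**
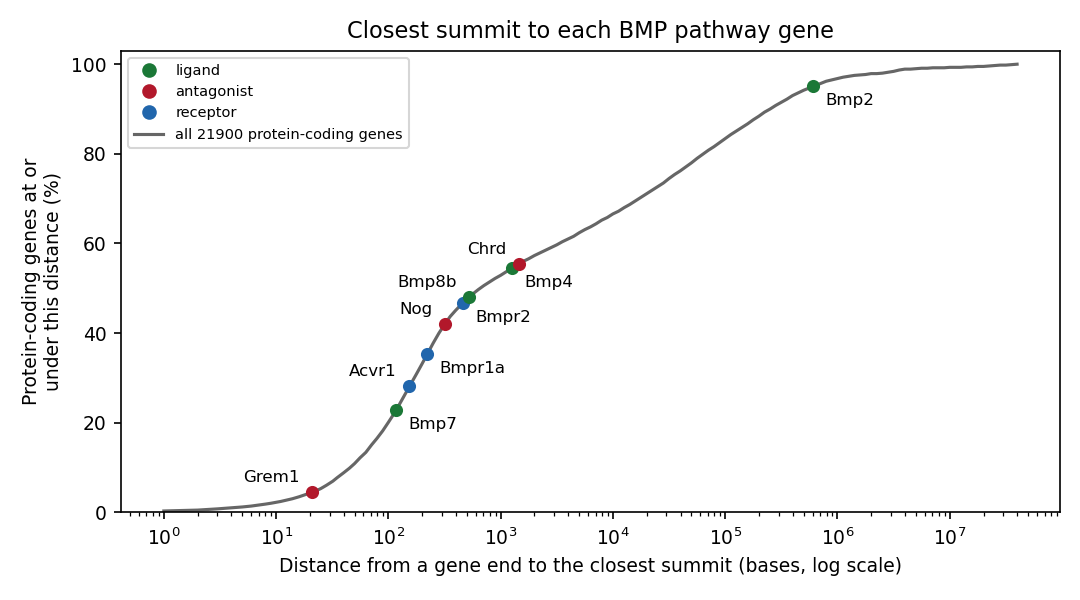
Distance in bases from a gene end to the closest summit (horizontal axis, log scale) against the percent of protein-coding genes at or under that distance (vertical axis, grey curve). Points are the 10 members, coloured by role. From Grem1 (21 bases) to Chrd (1450 bases) 9 members lie on the left part of the curve, and Bmp2 (606562 bases) lies far to the right.

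Of the 59 summits in the 10 loci, 22 were inside members and 37 outside. Of the 37, 18 lay inside another protein-coding gene and 19 in none. The member had the nearest protein-coding gene end for 34 of the 59 and another gene for 25. Summits within 1 kb of any protein-coding gene end made up 18 of the 59 (30.5%), against 42.3% of the whole list. Of the 50 neighbouring pairs in the loci, 13 (26.0%) were under 1 kb apart, against 15.5% of pairs in the whole list. These shares are not alike in construction. Pairs in the loci leave out every gap that reaches past a locus, such as that around Bmp2, which raises the share of short gaps. The whole list keeps all gaps. The smallest gap was 546 bases. Summits of a run may be parts of a broad peak, which cannot be judged without heights.

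Other genes of the pathway were taken from lists by role. Of 19 other TGF-beta family ligand genes, 15 had a summit within 10 kb (78.9%, against 66.6% of all protein-coding genes), and the same 78.9% had one within 50 kb, near the 78.0% of all protein-coding genes. Gdf3 (7 summits), Gdf11 (5) and Inhbb (3, tied with Nodal and Inha) held most. None was listed within 10 kb of Bmp5, Gdf2, Gdf10 and Bmp15. Bmp15 encodes an oocyte growth factor, as does Gdf9, which had 2 summits. Gdf3, a NODAL-related ligand gene, neighbours the primordial germ cell gene Dppa3. Of 12 other receptor and co-receptor genes, 11 had a summit within 10 kb (91.7%, against 66.6%), with Acvr1b (6), an activin type I receptor gene, Rgmb (4), encoding a BMP co-receptor, and Acvr2b (4), a type II receptor gene, holding most, and Acvr1c having none. Of 15 other antagonists and modulators of the extracellular signal, 10 had one (66.7%, near the 66.6% of all protein-coding genes), with Dand5 (5), Sost (4) and Fst (3) holding most. Chrdl2, Sostdc1, Cer1, Fstl1 and Chrdl1 had none within 10 kb.

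Downstream of the receptors, all 10 Smad and Smurf genes had a summit within 10 kb, against 66.6% of all protein-coding genes. The inhibitory Smad7 and Smad6 held most, with 11 and 9, followed by Smad3 with 4, tied with Smad9, whose closest summit was farther. All 6 Id and Msx genes, which respond to BMP signals, had one, against the same 66.6%, with Msx2 (6), Id3 (5) and Msx1 (4) holding most. Among the members Bmp4, with 9, matched Smad6 and stood below Smad7. The median number of summits within 10 kb was 2 for the members, 2.5 for Smad and Smurf genes, 3.5 for Id and Msx genes, and 1 for all other protein-coding genes. The median closest distance was 388 bases for the members, 180 bases for Smad and Smurf genes and 82.5 bases for Id and Msx genes. These lists hold few genes, and no difference between them was tested. Nor were they matched for length. Smad and Smurf genes fell in the classes of 24582 bases or more, where 75.8% and 76.7% of genes had a summit within 10 kb. Id and Msx genes fell in the classes up to 11628 bases, where the shares were 37.2% and 68.4%.

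**Figure D5:**
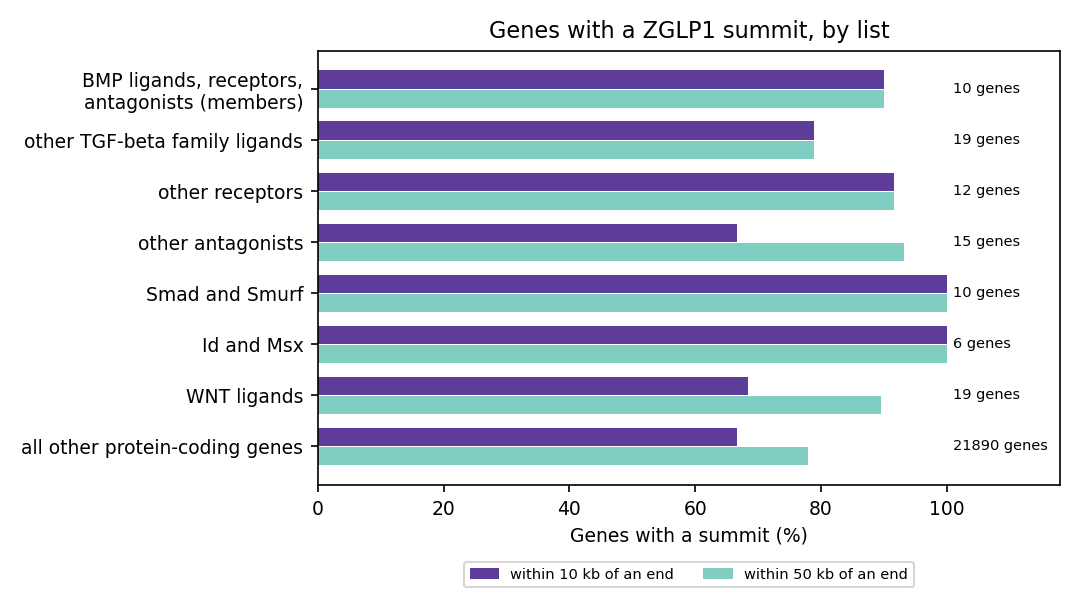
Percent of genes with a summit within 10 kb and within 50 kb of an end (horizontal axis), for the 10 members, 6 other lists and all other protein-coding genes, with the number of genes at the right. The members stand at 90.0% for both distances, Smad, Smurf, Id and Msx genes at 100.0%, and all other protein-coding genes at 66.6% and 78.0%.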

How the data were processed

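ChIP with an anti-V5 antibody was sequenced for 5 ChIP and 3 input libraries. The submitters' processing notes name MACS2 2.1.1.20160309, HOMER 4.9.1, Bowtie 1.1.2 and the build mm10. Their settings, the libraries behind the peaks and how peaks were joined are not given in the sources used here. The authors deposited summit positions in bases, with start equal to end, so a position may be off by 1 base.

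Summits were set against either end of RefSeq genes of GRCm38.p6, inside or outside the gene. Exons were not used here. Start sites, strands and sequences came from the RefSeq promoter table of that build, which holds 7 of the 10 members. The background was all 21900 protein-coding genes, also in 5 length classes. Named genes were the members, the 3 genes of each other list with most summits within 10 kb, those with none there, and neighbours sharing a summit. Others were chosen after their values were seen. A gene of the lists is not reported here. Members and lists were chosen with earlier results of these data known. Counting matched a direct calculation on simulated summits for 300 of 300 genes. Python 3.11.15, numpy 2.4.6, pandas 2.3.3 and matplotlib 3.10.9 were used.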

Additional observations from a re-analysis of the deposited data

How the results depend on the processing

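Of 60 values recomputed under other settings, 49 stayed within 1.5 times of the reported value. The number of members with a summit within 10 kb was 9 as reported, 9 with summits joined, by nearest gene and at 5 kb, 8 without summits within 1 kb of another gene's end, and 7 at 1 kb. With start sites alone it was 7 of the 7 that have one, but the matching share of start sites at 10 kb was not counted for the background. By gene ends, the closest summit was at most 5012 bases away in 62.4% of the background genes. It was at most 1 kb away in 52.9% of them. The number of distinct summits within 10 kb, 26, became 9 at 1 kb. That within 50 kb, 58, became 36 at 25 kb and 34 when only summits with the member as nearest gene were counted. Fewer summits are counted in these settings by their construction. The other 8 values that moved were counts of single members. A stricter peak threshold was not run, as the list has no score. No paired analysis was possible because no summit can be tied to a library and no group was replicated. How deep the libraries were is not known, which limits what the empty stretch at Bmp2 shows.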

Other observations

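The 19 WNT ligand genes, another family of secreted signals, are listed here as another set. A summit lay within 10 kb of 13 of them (68.4%, near the 66.6% of all protein-coding genes), and within 50 kb of 17 (89.5%, against 78.0%). Of the 4 BMP ligand genes, 3 had one at both distances, and no difference was tested. Wnt10a had 4 summits within 10 kb, and Wnt3, Wnt9b and Wnt10b had 3 each. Wnt2 and Wnt5a had none within 50 kb, with the closest 144781 and 179448 bases away, nearer than the closest to Bmp2. Wnt7b, Wnt3a, Wnt2b and Wnt16 had none within 10 kb. The median closest distance was 1276 bases for WNT ligand genes and 658.5 bases for all protein-coding genes other than the 10 BMP pathway members.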
